A study of Homo sapiens with 4 samples.

Results

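The genes described here are 38 members of the forkhead family other than FOXC1, its neighbours on 6p25 and FOXA1, out of 20163 protein-coding genes on chromosomes 1 to 22, X and Y. The list was set by gene name, with earlier results of these data known. To examine where FOXC1 was found at these genes, peaks of FOXC1 chromatin immunoprecipitation with sequencing (ChIP-seq) were counted when their summit lay in the gene body or within 20 kb of it, a stretch called the window of the gene. The study prepared 4 libraries from J82, a human bladder cancer cell line kept in DMEM with 10% FBS and given no treatment in the labels. FOXC1 ChIP replicates 1 and 2 used D8A6, an antibody against FOXC1, and the 2 input libraries carried no antibody. The results therefore describe 1 cell line, with 1 peak list per ChIP replicate and no contrast between conditions, and gene expression was not analysed here.

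Forkhead (FOX) proteins are transcription factors that share a winged-helix DNA-binding domain. Most of them recognise closely related sequences built around TAAACA, so that different family members can occupy the same site in one cell. The family includes factors that open chromatin during organ formation, factors controlled by insulin signalling, activators of cell division genes and repressors of the FOXP group. In the bladder, FOXA1 and FOXA2 are known from urothelial development.

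A peak marks a place where ChIP reads pile up over the background, and its summit is the highest point. Peaks of the replicates that overlapped were merged into shared regions, which are numbered along the chromosome within each gene. Fold enrichment is the ratio of the ChIP signal at the summit to the local background, as deposited by the authors, and a shared region is called strong here when its −log10 q was at least 5 in both replicates. Replicate 1 listed 22405 peaks and replicate 2 listed 41789, with a median of 18 and 23 reads over a summit and about 43.2 and 41.5 M ChIP reads. Of the replicate 1 peaks 59.6% were overlapped by replicate 2, and of the replicate 2 peaks 31.7% by replicate 1. Over the genome there were 13238 shared regions, of which 50.8% were strong. All coordinates are on hg19, which is GRCh37.

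The DNA under the summits is shown first, for the 6 member regions with the highest mean fold enrichment and for the 2 that held a forkhead and an AP-1 sequence. Each line gives the plus strand of GRCh37, 50 bases to either side of the region's summit. Capitals mark a forkhead sequence (the 4 words GTAAACA and its form GTAAATA, and ATAAACA and its form ATAAATA, on either strand, so that GTAAACA on the minus strand reads TGTTTAC here), an AP-1 sequence (TGACTCA or TGAGTCA) or TGACGTCA, the cyclic AMP response element.
FOXP2 region 3, chr7:114142558-114142658: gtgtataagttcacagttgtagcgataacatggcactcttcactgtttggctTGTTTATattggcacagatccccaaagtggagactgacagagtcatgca
FOXJ3 region 1, chr1:42680401-42680501: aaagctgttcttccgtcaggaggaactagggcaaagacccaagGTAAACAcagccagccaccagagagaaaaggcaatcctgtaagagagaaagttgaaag
FOXP1 region 18, chr3:71633180-71633280: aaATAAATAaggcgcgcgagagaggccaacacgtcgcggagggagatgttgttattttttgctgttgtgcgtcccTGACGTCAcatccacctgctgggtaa
FOXB1 region 3, chr15:60363133-60363233: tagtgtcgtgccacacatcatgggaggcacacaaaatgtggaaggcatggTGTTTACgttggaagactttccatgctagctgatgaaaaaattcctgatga
FOXP1 region 17, chr3:71629238-71629338: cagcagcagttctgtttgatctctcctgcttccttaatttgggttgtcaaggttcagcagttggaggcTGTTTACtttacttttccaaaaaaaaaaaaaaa
FOXP2 region 1, chr7:113725882-113725982: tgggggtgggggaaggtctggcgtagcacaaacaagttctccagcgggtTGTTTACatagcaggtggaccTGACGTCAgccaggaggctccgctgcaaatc
FOXP1 region 8, chr3:71166818-71166918: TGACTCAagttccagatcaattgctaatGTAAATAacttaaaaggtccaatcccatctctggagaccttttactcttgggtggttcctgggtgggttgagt
FOXP1 region 16, chr3:71627658-71627758: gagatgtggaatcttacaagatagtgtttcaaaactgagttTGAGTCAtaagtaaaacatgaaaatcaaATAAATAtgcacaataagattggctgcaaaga
In 4 of these windows, those of FOXP2 regions 1 and 3, FOXJ3 region 1 and FOXB1 region 3, the forkhead match was centred within 5 bases of the summit. The windows of FOXP1 region 18 and FOXP2 region 1, both upstream of a start site of their gene, held TGACGTCA. The printed windows are not typical in their forkhead sequences. FOXP1 region 7, FOXP1 region 2 and FOXB1 region 2 came next by mean fold enrichment (11.4, 10.7 and 10.3) and held none. FOXP1 region 1 held an AP-1 sequence and no forkhead sequence.

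Of the 38 forkhead genes, 16 had at least 1 shared region in their window (42.1%, exact binomial interval 26.3 to 59.2%), and among all protein-coding genes 33% did. This background lay inside the interval, so the share of forkhead genes was not distinguishable from it at this number of genes. A strong region was found at 9 of 38 (23.7%, interval 11.4 to 40.2%), against 20.2% of all coding genes. More than 1 shared region was found at 9 of 38, again 23.7%, against 12.1% of coding genes, a background just inside the same lower bound of 11.4%. A replicate 1 peak lay in the window of 23 genes (60.5%, against 47% of coding genes) and a replicate 2 peak in that of 25 (65.8%, against 66.2%). No peak of either replicate was found at 11 genes (28.9%, against 29.5% of coding genes). The remaining 11 had peaks that were not shared.

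The windows together spanned 4213.98 kb and held 49 shared regions, of which 23 were strong. The −log10 q of the 49 went down to 0.201 in replicate 1 and 0.434 in replicate 2, so some were weak in a replicate. No region was counted for more than 1 gene. The peaks behind them numbered 69 in replicate 1, of which 20 had no partner, and 99 in replicate 2, of which 50 had none. Most regions were at few genes: FOXP1 held 18 of 49 (36.7%), FOXP2 held 5, FOXN3 held 4, and FOXB1, FOXK1 and FOXN2 held 3 each. FOXJ3, FOXO1 and FOXO3 had 2 each, and FOXD1, FOXD3, FOXE1, FOXF1, FOXL1, FOXM1 and FOXS1 had 1. The density was 1.16 shared regions per 100 kb of window, 0.875 without FOXP1 and 0.428 over the chromosomes. The chromosomes include stretches far from any gene, so the last value is not a like background. Another coding gene reached into 23 of the 38 windows, and which gene a region acts on was not measured.

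**Figure D1:**
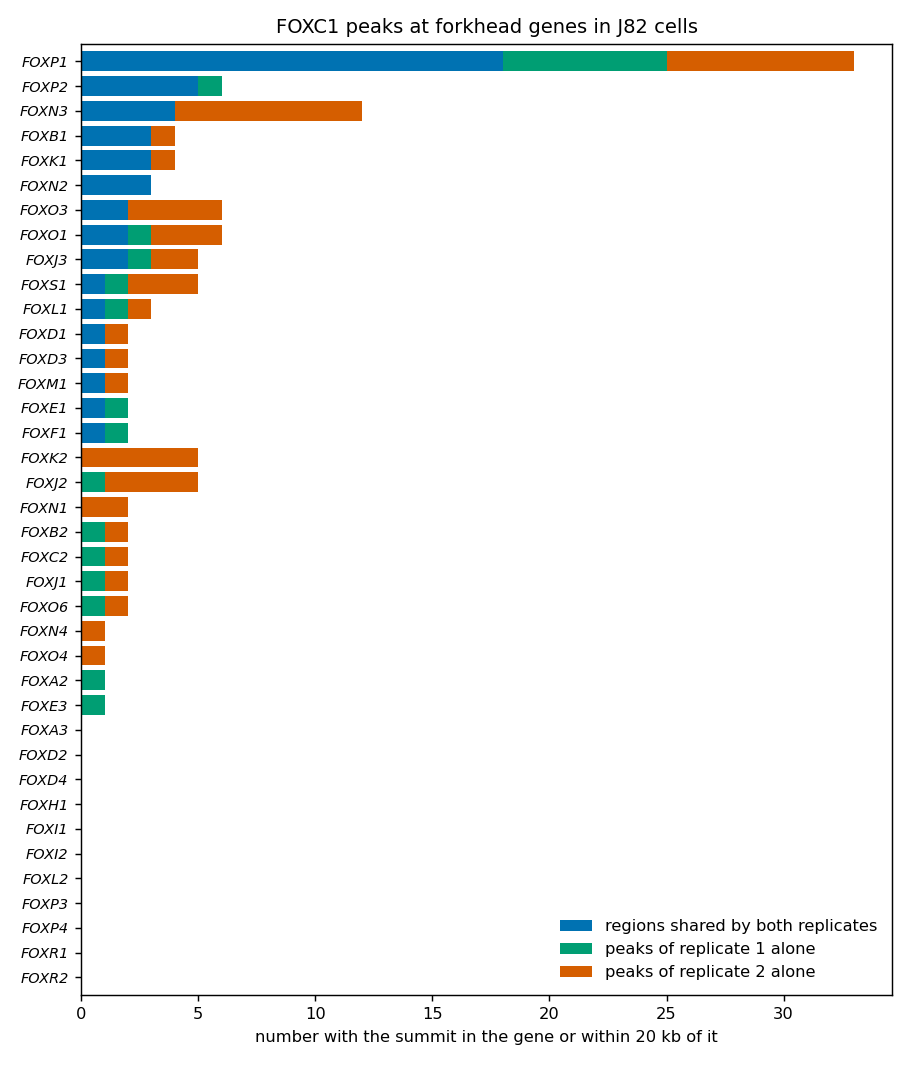
Number of regions shared by both replicates (blue), peaks of replicate 1 alone (green) and peaks of replicate 2 alone (orange) in the window of each of the 38 forkhead genes. FOXP1 has 18 shared regions, 7 replicate 1 peaks and 8 replicate 2 peaks without a partner, FOXN3 has 8 unpaired replicate 2 peaks, FOXK2 has 5 peaks of replicate 2 and no shared region, and 11 genes have no peak.

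A longer window holds more peaks, and the genes were therefore set beside coding genes of like length. Among windows under 50 kb, 6 of 21 forkhead genes had a shared region (28.6%, interval 11.3 to 52.2%), against 16.9% of coding genes. Among those of 50 to 100 kb it was 2 of 8 (25%, interval 3.19 to 65.1%), against 27.4%. Among those over 100 kb it was 8 of 9 (88.9%, interval 51.8 to 99.7%), against 56.1%, and the exception was FOXK2. In every class the share of coding genes lay inside the interval of the forkhead genes. Genes with windows over 100 kb held 39 of the 49 regions. From the shortest class to the longest, forkhead genes had a mean of 0.286, 0.5 and 4.33 shared regions per gene. Coding genes had 0.208, 0.358 and 1.24. The longest class includes FOXP1 with its 18 regions.

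**Figure D2:**
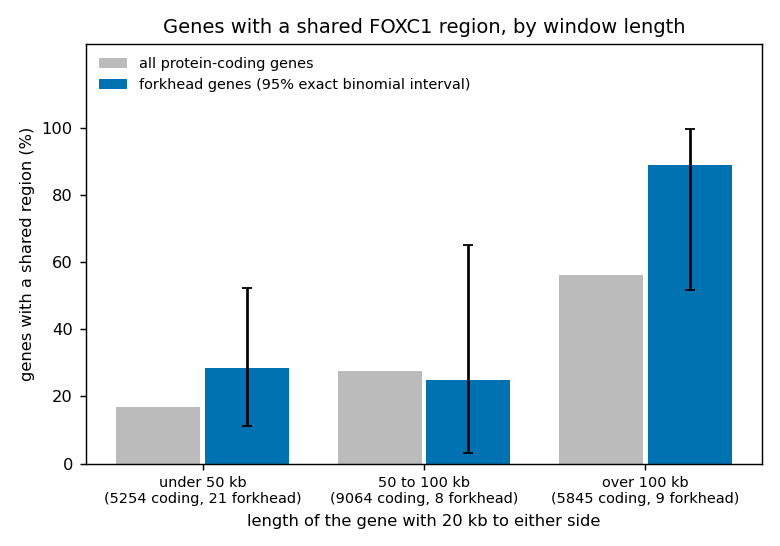
Percent of genes with at least 1 shared region, by length of the window, for all protein-coding genes (grey) and the forkhead genes (blue, with 95% exact binomial intervals). The shares are 16.9, 27.4 and 56.1% for coding genes and 28.6, 25 and 88.9% for forkhead genes, and each grey bar ends within the interval beside it.

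FOXP1, a repressor needed in B cell, lung and neural development, stood first among the forkhead genes. Its gene body is chr3:71003844-71633129 on the minus strand, and in its window of 669.286 kb replicate 1 had 25 peaks and replicate 2 had 26. The 18 shared regions, of which 11 were strong, gave 2.69 regions per 100 kb, the highest density among the 388 coding genes with a window over 500 kb (median 0.348). By number, 1 coding gene had more, ENSG00000285708 with 22, and it overlaps FOXP1 and shares regions with it. Next came IQCJ-SCHIP1 and LPP with 16 each. Neighbouring FOXP1 summits lay between 0.682 and 171.4 kb apart, with a median of 14.7 kb.

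Along FOXP1, regions 16 to 18 lay at the 5′ end, regions 13 to 15 lay 73.2 to 203.8 kb from it, and the other 12 lay at 375.2 kb or farther. Region 18, chr3:71632483-71633695, lay 101 bp upstream of a FOXP1 start site, also inside an intron of ENSG00000285708. Its fold enrichment was 10.5 in replicate 1 and 22.3 in replicate 2 (mean 16.4 ± 8.35, SD, n = 2), with 53 reads (exact Poisson interval 39.7 to 69.3) and 122 reads (101.3 to 145.7) over the summit. Such read intervals, like the binomial ones, cover counting error only. Region 17, chr3:71629015-71629571, lay 1379 bp from a start site in an annotated exon, with fold enrichments of 10.3 and 16.0 and 52 and 87 reads. Region 16 lay 291 bp upstream of another start site with fold enrichments of 3.0 and 7.23, and its −log10 q of 4.37 in replicate 1 kept it just under the limit for a strong region.

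Further into FOXP1, 6 regions, 5 to 10, lay between 450 and 500 kb from the 5′ end, limits chosen after the positions had been seen. The strongest of them was region 7, chr3:71160808-71161391, 681 bp from a start site, with fold enrichments of 7.17 and 15.7 (mean 11.4 ± 6.03, SD, n = 2) and 43 and 87 reads. Region 9, chr3:71179522-71180059, had its summit in an exon 16 bp from a start site. Its fold enrichment was 3.54 in replicate 1 and 15.2 in replicate 2, a ratio of 4.28, the widest gap among the 49 regions. Summit reads numbered 28 and 79, and the local background was 7.19 and 3.78 in the units of the caller, so that the replicates differed in reads and in background. Regions 8, 6 and 5 had fold enrichments of 6.27 and 11.7, of 4.78 and 4.98, and of 3.91 and 7.90, and all 3 were strong. Region 10 was not, with 2.86 and 5.30.

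Of the other strong FOXP1 regions, region 2, chr3:71055737-71056449, lay 1616 bp upstream of a start site and had nearly equal fold enrichments of 10.8 and 10.6. Its reads were not equal, at 59 and 139, and neither was its background, at 4.56 and 11.0 units. Region 11 had fold enrichments of 8.33 and 9.38, region 1 of 4.27 and 11.8, and region 14 of 4.69 and 5.44. Regions 3, 4, 12, 13 and 15 were not strong, with fold enrichments of 2.66 to 3.56 in replicate 1 and 2.28 to 9.91 in replicate 2. In all, 16 of the 18 regions lay in introns and 2 in exons, and 7 lay within 2 kb of a FOXP1 start site, of which the annotation holds 67. Replicate 2 gave the higher fold enrichment in 16 of 18.

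FOXP2, a repressor known from speech and motor circuits, held the strongest region at any forkhead gene. Region 3, chr7:114142175-114143071, was intronic, with the nearest FOXP2 start site 76038 bp away. Its fold enrichment was 29.8 in replicate 1 and 36.2 in replicate 2 (mean 33.0 ± 4.50, SD, n = 2), with 153 reads (interval 129.7 to 179.3) and 279 reads (247.2 to 313.7), and it ranked 186 of the 13238 shared regions by mean fold enrichment. It was the one region of mean fold enrichment above 20 at these genes, and the second, in FOXJ3, was at 19.2.

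The other strong FOXP2 region was region 1, chr7:113725605-113726197, which lay 450 bp upstream of the gene's first start site, between genes. It had fold enrichments of 8.01 and 16.8 and 43 and 87 reads. Region 2 lay in an exon 156 bp from a start site with 3.87 and 4.87, and regions 4 and 5 lay in introns with 3.09 and 5.46 and with 3.18 and 4.13. The density over the FOXP2 window of 647.446 kb was 0.772 per 100 kb, and 191 coding genes had more regions. FOXP3, which specifies regulatory T cells, and FOXP4, a close relative of FOXP1 and FOXP2, had no peak of either replicate, and their nearest shared regions lay 169.4 and 42.3 kb away.

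**Figure D3:**
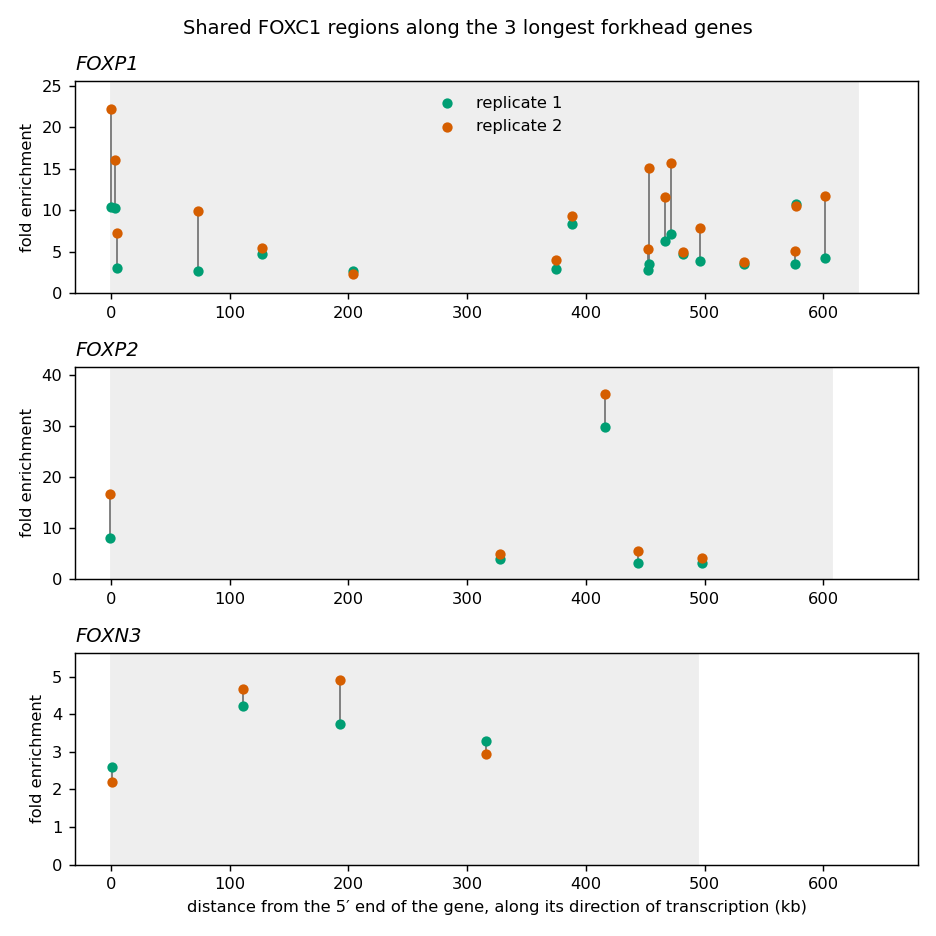
Fold enrichment in replicate 1 (green) and replicate 2 (orange) of each shared region along FOXP1, FOXP2 and FOXN3, against the distance of its summit from the 5′ end of the gene in kb, with the gene body shaded and a grey line joining the replicates. FOXP1 has regions at its 5′ end and 6 between 450 and 500 kb, FOXP2 has 1 region at 29.8 and 36.2 far above its others, and the 4 FOXN3 regions stay below 5 in both replicates.

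Among the 20 factors of lineage and organ development, 7 had a shared region and 3 a strong one, against 33% and 20.2% of all coding genes. They held 9 shared regions in all. FOXB1, which acts in the developing hypothalamus, held 3. Region 3, chr15:60362821-60363493, lay between genes beyond the annotated end of FOXB1, with fold enrichments of 10.1 and 20.7 (mean 15.4 ± 7.55, SD, n = 2) and 51 and 108 reads. Region 2 lay in an intron with fold enrichments of 6.72 and 13.9, and its replicate summits fell on the same base. Region 1 was weaker, with 3.17 and 6.11, and no other coding gene reached into the FOXB1 window.

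FOXD1, a factor of the kidney stroma, had 1 strong region, chr5:72742027-72742815, in an exon 534 bp from its start site and 97 bp from that of the antisense transcript FOXD1-AS1. Its fold enrichment was 3.22 in replicate 1 and 10.5 in replicate 2, with 34 and 57 reads and a local background of 9.88 and 4.0 units. FOXE1, a thyroid factor, had 1 strong region, chr9:100607160-100607844, 8018 bp upstream in an intron of the long non-coding RNA PTCSC2. Its fold enrichments were 5.37 and 7.97, with 43 and 87 reads and a local background of 7.19 and 9.0 units. The replicates thus lay closer together at FOXE1 than at FOXD1 in fold enrichment, and farther apart in reads.

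The other development genes with a shared region had weaker ones. FOXD3, a neural crest factor, had a region 216 bp upstream of its start site with fold enrichments of 2.90 and 6.30. FOXF1, a mesenchymal factor of lung and gut, had one 1503 bp upstream of its start site and 25 bp from that of the non-coding RNA FENDRR, with 2.90 and 3.63. FOXL1, of the gut mesenchyme, had one 12086 bp from its start site with 3.28 and 3.33. The FOXS1 region, at 2.80 and 4.60, lay in an intron of MYLK2, 19.566 kb from FOXS1, just inside the limit of 20 kb.

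Just outside that limit was FOXC2, a lymphatic factor and the closest relative of FOXC1 among these genes. The nearest shared region lay 20.907 kb from FOXC2 and is the one counted for FOXL1, whose window overlaps that of FOXC2. The same replicate 1 peak and the same replicate 2 peak, at a fold enrichment of 5.81, were counted for both genes as unshared peaks. FOXL2, an ovarian factor, had no peak within its window, and its nearest shared region lay 28.965 kb away with fold enrichments of 10.3 and 12.4. FOXI1, which specifies ionocytes, had its nearest at 41.527 kb with 6.97 and 12.2.

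The J factors are linked to cilia and germ cells, and 1 of the 3 had shared regions, against 33% of all coding genes. FOXJ3 held 2, both strong and both in introns. Region 1, chr1:42680091-42680878, lay 8769 bp upstream of the nearest FOXJ3 start site, with fold enrichments of 10.8 and 27.6 (mean 19.2 ± 11.9, SD, n = 2). Its reads numbered 97 (interval 78.7 to 118.3) and 182 (156.5 to 210.4), and the replicate summits fell on the same base. Region 2 had 4.89 and 11.7. FOXJ1, the master regulator of motile cilia, and FOXJ2 had unshared peaks of both replicates and no shared region.

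Of the 4 widely expressed K and N factors, 3 had shared regions, with 10 regions of which 3 were strong. The windows of all 4 were over 100 kb, a class in which 56.1% of coding genes had a shared region. FOXN2 held 2 strong regions, region 1 in an intron with fold enrichments of 7.16 and 7.89 and 36 and 60 reads, and region 2 in an exon with 4.07 and 6.80. FOXN3, a repressor that acts in cell cycle checkpoints, held 4 regions in a window of 534.279 kb, all in introns. The strong one was region 3, with 4.22 and 4.67 and 26 and 25 reads, and FOXN3 also held 8 unshared replicate 2 peaks. In regions 1 and 4 of FOXN3 replicate 1 gave the higher fold enrichment, at 3.29 against 2.95 and at 2.61 against 2.21, and those with regions 2 and 13 of FOXP1 were the 4 such cases among 49.

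FOXK1, a repressor of autophagy genes, had 3 regions and none strong, the highest being region 3 with fold enrichments of 3.75 and 8.52. In replicate 1 its −log10 q was 4.95, just under 5. FOXK2, the paralog of FOXK1, had no replicate 1 peak in a window of 164.95 kb and 5 replicate 2 peaks, the highest with a fold enrichment of 5.73 and 29 reads.

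The 4 FOXO factors are targets of insulin signalling, which keeps most of them out of the nucleus, and they turn on stress response genes. FOXO3 had a strong region 2, chr6:108902558-108903260, in an intron 20768 bp from its nearest start site, with fold enrichments of 5.38 and 13.0 (mean 9.17 ± 5.35, SD, n = 2), 27 and 67 reads, and summits 2 bp apart. Its region 1 had 3.46 and 5.54. FOXO1 had 2 regions that were not strong, the higher with fold enrichments of 3.45 and 5.29. FOXO4 had 1 peak of replicate 2 and FOXO6 had 1 unshared peak of each replicate.

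FOXM1, the activator of genes for entry into mitosis, had 1 shared region of fold enrichments 2.66 and 6.89. It lay 1.62 kb beyond the 3′ end of FOXM1, in introns of ITFG2 and TEX52, and 21.1 kb from the FOXM1 5′ end. The nearest annotated FOXM1 start site was 8650 bp away and that of TEX52 979 bp. ITFG2, RHNO1, TEX52 and TULP3 all reached into the FOXM1 window, and beside FOXM1 only the gene of the nearest start site was named. A peak of replicate 2 alone, chr12:2986548-2987231, lay closer, 600 bp from a FOXM1 start site and 551 bp from one annotated to TULP3. With a fold enrichment of 8.41, 64 reads (interval 49.3 to 81.7) and a −log10 q of 32.3, it was the highest unshared peak at any of the 38 genes, and it is named here because of its values. Replicate 1 listed no peak that overlapped it. FOXR1 and FOXR2 had no peak in either replicate.

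Most unshared peaks at the forkhead genes were below the limit used for strong regions. A −log10 q of at least 5 was reached by none of the 20 in replicate 1 and by 10 of the 50 in replicate 2. The 20 of replicate 1 had fold enrichments of 2.18 to 3.41 with a median of 2.52, against 2.61 over all unshared peaks of that replicate. The 50 of replicate 2 ran from 1.82 to 8.41 with a median of 3.25, against 3.18. Genes with unshared peaks only were FOXA2 and FOXE3 (replicate 1), FOXK2, FOXN1, FOXN4 and FOXO4 (replicate 2), and FOXB2, FOXC2, FOXJ1, FOXJ2 and FOXO6 (both). Genes with no peak were FOXA3, FOXD2, FOXD4, FOXH1, FOXI1, FOXI2, FOXL2, FOXP3, FOXP4, FOXR1 and FOXR2. Over the 22 genes without a shared region, the nearest one lay 20.907 to 1006.69 kb away with a median of 90.3 kb, within 50 kb for 6 and within 100 kb for 12. At this depth and at the limit of the peak lists, any weaker binding at these genes would not have been listed, and its presence was not tested.

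To compare strength, fold enrichment at the 49 regions was set beside that at all shared regions. The median was 3.68 in replicate 1 and 6.80 in replicate 2, against 3.79 and 6.71 over all 13238. Replicate 2 exceeded replicate 1 by a median ratio of 1.64, against 1.69, and replicate 2 was higher in 45 of 49 (91.8%, interval 80.4 to 97.7%), against 91.9%. The share of strong regions was 46.9% (interval 32.5 to 61.7%), against 50.8%. The median gap between the replicate summits was 44 bp, against 28, and they lay within 100 bp of each other in 46 of 49 (93.9%), against 88.1%. Regions at FOXP1 had a median mean fold enrichment of 6.10, and those at the other genes 4.60.

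**Figure D4:**
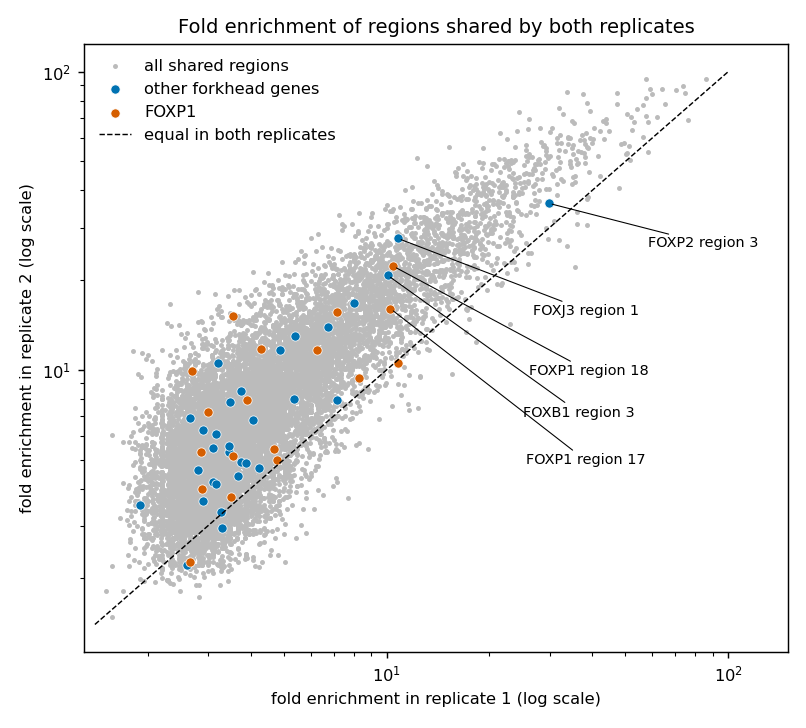
Fold enrichment in replicate 2 against replicate 1, both on log scales, for all 13238 shared regions (grey), the 18 regions at FOXP1 (orange) and the 31 at the other forkhead genes (blue), with a dashed line of equal values. In 45 of 49 member regions the point lies above the line, and FOXP2 region 3, at 29.8 and 36.2, lies apart from the others.

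The place of the regions was read from the annotation. Summits lay in introns in 38 of 49 (77.6%, interval 63.4 to 88.2%), in exons in 8 and between genes in 3. An intron or exon of any annotated gene counted, also where it was not the forkhead gene. These shares were not computed over all shared regions, and the counting rule itself favours summits inside genes. A start site of some gene lay within 2 kb of the summit in 15 (30.6%, interval 18.3 to 45.4%), against 20.05% of all shared regions, which is inside that interval. Of these, 13 lay within 2 kb of a start site of the forkhead gene itself, 7 at FOXP1 and 6 at FOXD1, FOXD3, FOXF1, FOXN3 and FOXP2, the last with 2. The median distance to a start site was 3630 bp, against 9941.5 bp over all shared regions, and 2518 bp for FOXP1 with its many annotated starts against 4849 bp for the others. A region counted for a forkhead gene only in its body or within 20 kb, while all shared regions include those far from genes. Some nearness to start sites is thus set by the counting rule, also in the share within 2 kb.

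Forkhead sequences were then counted in the windows of 50 bp to either side of each summit, on both strands. At least 1 of the 4 forkhead words given above was present in 30 of 49 regions (61.2%, interval 46.2 to 74.8%) and in 4 of 49 control windows 500 bp downstream (8.16%, interval 2.27 to 19.6%). Over all shared regions the shares were 48.7% at the summit and 10.8% in the control windows. GTAAACA alone was present in 16 of 49 (32.7%, interval 19.9 to 47.5%) and in 0 of 49 control windows, which allows a share of up to 7.25%, against 20.8 and 1.56% over all. The all-region share lay inside the interval for the members in both counts. A match is a description of the letters and not evidence that FOXC1 sits on them.

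The 33 matches comprised 17 of GTAAACA, 6 of ATAAACA, 6 of GTAAATA and 4 of ATAAATA. Their centres lay a median of 17 bp from the summit, 13 within 10 bp and 24 within 25 bp. In FOXB1 region 1 and FOXM1 region 1 a match was centred on the summit itself. By gene, 13 of the 16 genes with a shared region had a match in at least 1, and the exceptions were FOXD3, FOXN3 and FOXO3. FOXP1 had one in 12 of 18 regions (66.7%) and the other genes in 18 of 31 (58.1%). The strong regions held one in 12 of 23 (52.2%, interval 30.6 to 73.2%) and the others in 18 of 26 (69.2%, interval 48.2 to 85.7%), overlapping intervals. Over all shared regions the shares were 52.2% of the strong and 45.0% of the others. The latter lay below the interval of the member regions that were not strong, a split for which no test was run. Unshared peaks held one in 3 of 20 summit windows of replicate 1 (15%) and in 9 of 50 of replicate 2 (18%), against 10% and 6% of their control windows.

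**Figure D5:**
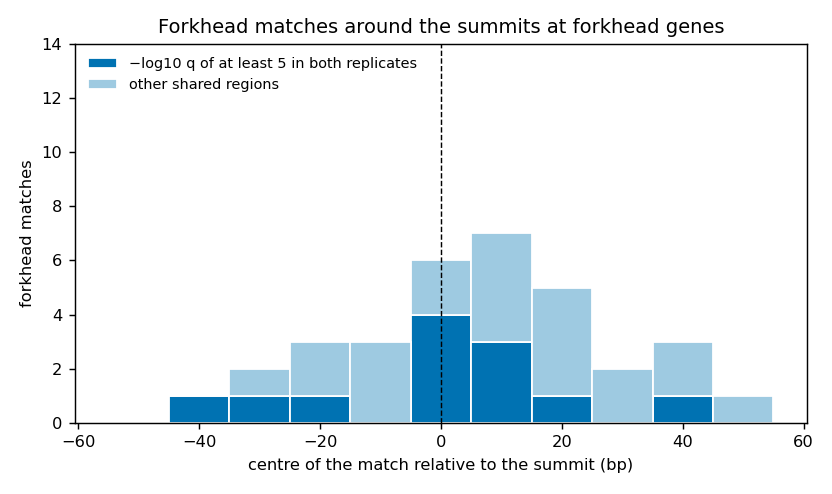
Number of forkhead matches by the distance of their centre from the region's summit, in bins of 10 bp, for regions with a −log10 q of at least 5 in both replicates (dark) and other shared regions (light). Of the 33 matches, 24 are centred within 25 bp of the summit.

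Sequences of other factors were rarer. TGACTCA or TGAGTCA, bound by the AP-1 family, was present in 3 of 49 regions (6.12%, interval 1.28 to 16.9%), against 16.6% of all shared regions, and all 3 were in FOXP1 (regions 1, 8 and 16). TGACGTCA, bound by the CREB family, was counted after it had been noticed in the printed windows. It was present in 2 of 49 regions, FOXP1 region 18 and FOXP2 region 1, and in 16 of all 13238 shared regions (0.121%). Among regions within 2 kb of a start site it was present in 2 of 15 at the forkhead genes and in 9 of 2654 overall (0.339%).

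Forkhead proteins work with partners and regulators, and 37 such genes were counted by the same rule. A shared region was found at 19 of 37 (51.4%, interval 34.4 to 68.1%) and a strong one at 11, against 33% and 20.2% of coding genes. The 33% lay below the interval. The partner list was however chosen with earlier results of these data known, so its shares are not independent of the peaks. The windows of the partner genes were long, with 16 over 100 kb and 2 under 50 kb. Among windows over 100 kb, 12 of 16 had a shared region (75%, interval 47.6 to 92.7%, against 56.1% of coding genes), among those of 50 to 100 kb 7 of 19 (36.8%, interval 16.3 to 61.6%, against 27.4%) and among the shortest 0 of 2. In each class the share of coding genes lay inside the interval. Among the 19 regulators of FOXO proteins, 9 had one, including YWHAQ, a 14-3-3 protein that binds phosphorylated FOXO, with fold enrichments of 59.2 and 87.5. Of the FOXH1 partners, SMAD3 had 4 regions with 25.6 and 52.3 at the highest, SMAD2 had 1 and SMAD4 none. Of the FOXM1 partners 4 of 5 had a region, led by LIN54 of the DREAM complex with 9.68 and 18.5. Only 2 of the 5 had a strong one. Of the TLE co-repressors 2 of 5 had one, of the FOXK partners 1 of 2 (SIN3A), and of the FOXP partners 1 of 3 (NFATC2, with 5 regions).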

How the data were processed

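FOXC1 ChIP-seq of J82 cells was sequenced as single-end reads of 75 bp. Per the labels and the study's methods, the authors mapped reads to hg19 with bwa and called peaks against input with MACS2 2.2.7.1, 1 list per replicate. The study also derived a set of reproducible peaks with the IDR tool, which was not used here. The shared regions are overlaps of the lists per replicate and are not that set. The input libraries, the reads and the other assays were not analysed here. The deposited score was 10 times the −log10 p, truncated, and was not used for any value in the text. The fold enrichment deposited by the authors is a ratio of ChIP pileup to local background. The −log10 p and −log10 q values deposited by the authors compare the same quantities.

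Peaks on other contigs (42 and 43) were left out. Peaks overlapping by at least 1 bp were merged into shared regions, whose summit was set midway between the replicate summits. A region counted for a gene when the summit of either replicate lay in the gene body or within 20 kb (GENCODE version 44 on GRCh37; the study used another version). Whole reads over each summit were solved from fold enrichment and −log10 p, at a residual under 0.001, which succeeded for 100% of peaks in both lists. Total reads were estimated from the genome-wide background, the smallest peak width and the 2.7 Gb genome size of the caller. The local background is given in the caller's scaled reads. The solving and the overlap were tested on simulated data. Intervals are 95% exact Clopper-Pearson or Poisson intervals.

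Samples were grouped by title. Every gene with a strong region is described with all its strong regions, other genes with a shared region by their highest one, and the rest by class. Further values were chosen after being seen. The values of 1 partner gene are not reported here. The members and lists were chosen with earlier results of these data known. No test was run, since there is 1 list per replicate and no contrast. Alternatives changed the window, the peak limits, the overlap rule, the motif and the promoter distance, and left out each replicate. Python 3.11.15 with numpy 2.4.6, scipy 1.17.1, pandas 2.3.3 and pysam 0.24.0 was used.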

Additional observations from a re-analysis of the deposited data

How the results depend on the processing

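Of 53 recomputed values, 18 moved and 35 stayed within the tolerance. That was 1.5 times for a count, the binomial interval for a share and 1 SD of the replicate medians, 2.204, for the median fold enrichment. The number of forkhead genes with a shared region moved to 10 in gene bodies alone, 28 within 100 kb, 7 at a fold enrichment of 5 or more and 9 at a −log10 q of 5 or more. At the fold enrichment of at least 5 there were 14 shared regions, 14 strong ones, 14 replicate 1 peaks and 38 replicate 2 peaks. At the −log10 q of at least 5 there were 23 shared regions, 23 replicate 1 peaks and 52 replicate 2 peaks. With a replicate left out, so that every peak of the other counted, genes numbered 23 to 25 and regions 69 to 99, and the forkhead sequence was present in 39.4 to 44.9%. That share was 44.9% within 25 bp and 32.7% for GTAAACA. The promoter share was 57.1% within 5 kb. These settings change the limits themselves or drop the need for a partner peak, and the cause of the moves was not tested further. The median fold enrichment fell from 5.07 to 3.22 without replicate 2, over 1.5 times, and was 4.13 without replicate 1. Since its tolerance is set by the gap between the replicates, it says little on stability. No paired analysis was possible because no result comes from a test between groups. With 2 replicates of 1 cell line, a median of 18 and 23 reads over a summit limits what weak peaks can show.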
